A study of Rattus norvegicus with 6 samples.

Results

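The comparison described here is that of aged rats 14 d after a stroke with aged naive rats, gene by gene. It takes the array value of each gene in aged 14 d tissue minus its value in aged naive tissue. All 10947 genes that passed a filter on low values are its members, out of 14497 genes that a probe set of the array names with 1 symbol, and the other 3550 stayed below the filter. The series holds 6 Affymetrix rat whole-transcript arrays, 1 for each group, and 2 of them carry the comparison.

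All rats were male Sprague-Dawley. The aged 14 d array held RNA pooled from 23 rats of 19 to 20 months, weighing 520 to 600 g, taken 14 days after the middle cerebral artery had been lifted with a tungsten hook for a time to stop its flow. The aged naive array held RNA pooled from 15 rats of 18 to 20 months in the same weight range, with no stroke. Young rats served as a second pair: 19 rats of 3 to 4 months 14 d after stroke, and 15 naive rats of 3 to 5 months, all of 290 to 360 g. Values of further arrays of aged (23 rats) and young (19 rats) tissue at 3 d are shown only where the time course is given. Those arrays also count in the filter on low values and in the choice of a probe set for each gene. Stroke tissue came from the brain area around the infarct and was microdissected, while naive tissue is labelled as healthy brain with no region named. No sham operation is among the groups, so surgery and infarct cannot be told apart.

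Around an infarct, resident microglia and astrocytes react within days, and monocytes enter from the blood. Phagocytes then clear myelin and dead cells, a process that loads them with lipid, while fibroblasts of the meninges and of vessel walls lay down a fibrous scar beside the astrocytic border. Interferon-induced genes, major histocompatibility complex (MHC) genes and complement are known to be raised in the ageing rodent brain and again after injury.

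Levels are log2 values, so a difference of 1 is 2-fold. A gene was called higher or lower in the aged pair when its difference was at least 1 in size. With 1 pooled array a side there is no replicate, so no difference has an error or a test, and how far single rats vary is not known. The number of arrays limits the precision. The difference between the aged naive and young naive arrays gives a scale for it, although it holds age as well as chance: its standard deviation (SD) over the 10947 genes was 0.173, against 0.653 for the aged stroke pair. Array medians lay between 7.09 and 7.15, and the Pearson correlation over all 28826 probe sets was 0.966 between the aged 14 d and aged naive arrays and 0.995 between both naive arrays.

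Defining genes of brain tissue were present on both arrays. Slc17a7, the vesicular glutamate transporter of cortical neurons, stood at 11.30 in aged 14 d tissue, against 11.89 in aged naive tissue. Mbp, a myelin protein, differed by -0.19. Gad1, which makes GABA, stood at 9.71 in aged 14 d tissue and 10.59 in aged naive tissue, and Gfap, the astrocyte filament protein, at 12.19 and 10.96 in the same order.

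The aged naive array stood apart from the young naive array in a small set of genes, and these touch the largest falls. Only 18 of 10947 genes (0.164%) were at least 1 higher in aged naive than in young naive tissue, and none was at least 1 lower. They include Th and Slc6a3 (tyrosine hydroxylase and the dopamine transporter, both of midbrain dopamine neurons), Tph1 (tryptophan hydroxylase of the pineal gland), Slc17a6 (the vesicular glutamate transporter of thalamus and other subcortical regions), Calb2 (calretinin) and Shox2 (a thalamic homeobox gene). Th stood at 8.98 in aged naive tissue and 6.97 in young naive tissue, and Tph1 at 8.79 and 6.41. The same set holds immune genes: Cd74, the invariant chain of MHC class II, stood at 10.36 in aged naive and 8.37 in young naive tissue, and C3, the central complement component, at 9.61 and 7.99. Since the naive region is not named, a difference in the dissected region between naive and stroke tissue cannot be told apart from an effect of stroke.

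**Figure D1:**
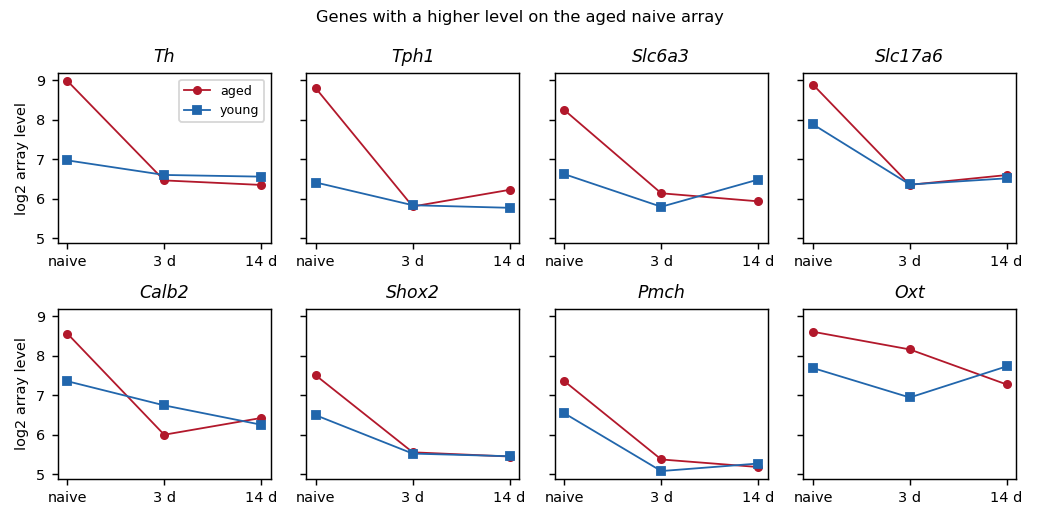
Log2 array levels (vertical axis) of 8 genes typical of subcortical regions on the naive, 3 d and 14 d arrays of aged rats (red circles) and young rats (blue squares), 1 pooled array a point. The aged naive array has the highest of the 6 values of every gene shown, 8.98 for Th and 8.79 for Tph1, and both stroke arrays of aged rats lie below it.

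In aged rats 14 d after stroke, 820 genes (7.49% of 10947) were called higher and 127 (1.16%) lower. With array medians centred, which moves every difference by -0.106, these counts were 720 and 223. The rises reached further than the falls: 243 genes (2.22%) were at least 2 higher, which is 4-fold, and 9 (0.0822%) were at least 2 lower. Over all genes the median difference was -0.05, and 95% of genes had a difference of at most 1.32. In the young pair 534 genes (4.88%) were called higher and 38 (0.347%) lower. Genes just inside the upper limit were Lima1 and Dram2, both at 1.0, with Myo7a and Sft2d2 at 0.998 just outside. Just inside the lower limit were St8sia3 and Nptx2, both at -1.0, and Mgat4c and Tmem14a, at -0.998 and -0.997, were just outside.

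**Figure D2:**
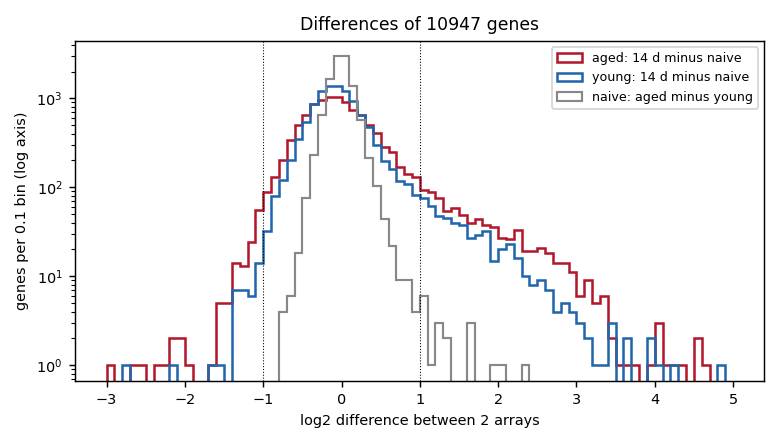
Histograms of log2 differences (horizontal axis) for 10947 genes, as genes per bin of 0.1 on a log axis: aged 14 d minus aged naive (red), young 14 d minus young naive (blue) and aged naive minus young naive (grey). The dotted lines mark a difference of 1 in size, past which lie 820 higher and 127 lower genes in the aged pair.

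The largest rise was that of Slfn9, a Schlafen gene of the interferon response, with a level of 10.74 in aged 14 d tissue against 6.08 in aged naive tissue, a difference of 4.65. Cd68, a lysosomal membrane protein of phagocytes, stood at 11.48 in aged 14 d and 6.89 in aged naive tissue (4.59). Fcrl2, an Fc receptor-like gene matched to the microglial gene Fcrls, stood at 10.80 and 6.29 in the same order (4.51). These are genes of interferon signalling and of phagocytes, and so are most of the 15 largest rises. Mx1 (an antiviral GTPase, 4.38), Ifitm1 (a membrane protein that restricts viral entry, 4.25), Slfn4 (4.09) and Usp18 (which removes ISG15 from proteins, 3.78) are induced by interferon. Lilrb4 (an inhibitory receptor of myeloid cells, 4.14), Clec7a (the beta-glucan receptor dectin-1, 4.10), Gpnmb (a glycoprotein of lipid-loaded macrophages, 3.95), C1qc (a chain of complement C1q, 3.46) and Cmklr1 (the chemerin receptor, 3.44) are myeloid. The set is completed by Cxcl13, a chemokine that attracts B cells (4.03), Lum (lumican, a matrix proteoglycan, 3.69) and S100a11 (a calcium-binding protein, 3.51). A second probe set of S100a11 gave 1.72. On the aged naive array Slfn9, Fcrl2, Mx1 and Cxcl13 lay below the 40th percentile. Ifitm1, Lilrb4, Slfn4, Usp18 and Lum lay below its lower quartile, so the size of all these rises is uncertain.

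The largest falls were smaller and of another kind. Hbb-b1, a beta-globin gene of red cells, stood at 5.61 in aged 14 d tissue and 8.54 in aged naive tissue (-2.93), and Hbb at 7.45 and 9.49 (-2.04). Next came Th (-2.63), Tph1 (-2.56), Slc6a3 (-2.31), Slc17a6 (-2.29), Pmch (melanin-concentrating hormone of the hypothalamus, -2.17), Calb2 (-2.13) and Shox2 (-2.05). Lrrc10b (-1.97), Syndig1l (-1.55) and Tac1 (substance P precursor, -1.54) belong to striatal neurons, and Ntng1 (netrin-G1, -1.63) to thalamic and cortical ones. Ctxn3 (-1.58) and Grifin (a lens galectin relative, -1.55) complete the 15. Both globin genes were also lower in the young pair, by -2.74 and -2.17.

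**Figure D3:**
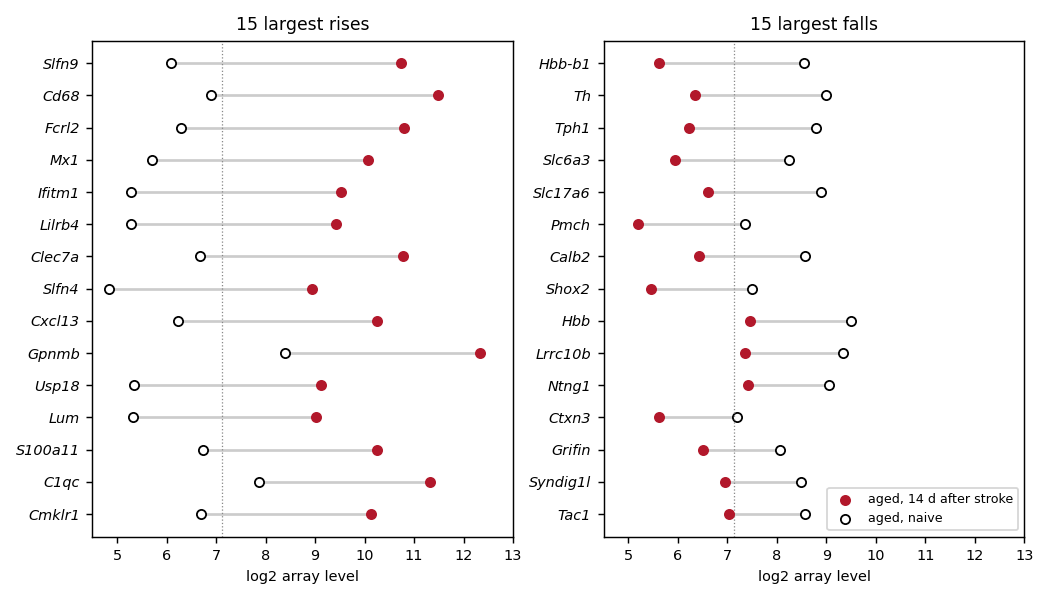
Log2 array levels (horizontal axis) of the 15 genes with the largest rises (left) and the 15 with the largest falls (right), in aged 14 d tissue (red) and aged naive tissue (open), 1 pooled array a point. The dotted line is the median of all values, 7.13. Most of the falling genes end below it in aged 14 d tissue, such as Pmch at 5.19.

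Genes were then described by function, in lists of named members. A gene passed the filter if it was high on at least 1 of 6 arrays, stroke arrays included, so members that stayed low everywhere are not counted and the counts describe the measured members only. Each count of calls is read against 7.49% called higher and 1.16% called lower over all genes. Counts above or below 0 are read against 4995 genes above 0 and 5952 below 0 over all genes in the aged pair.

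**Figure D4:**
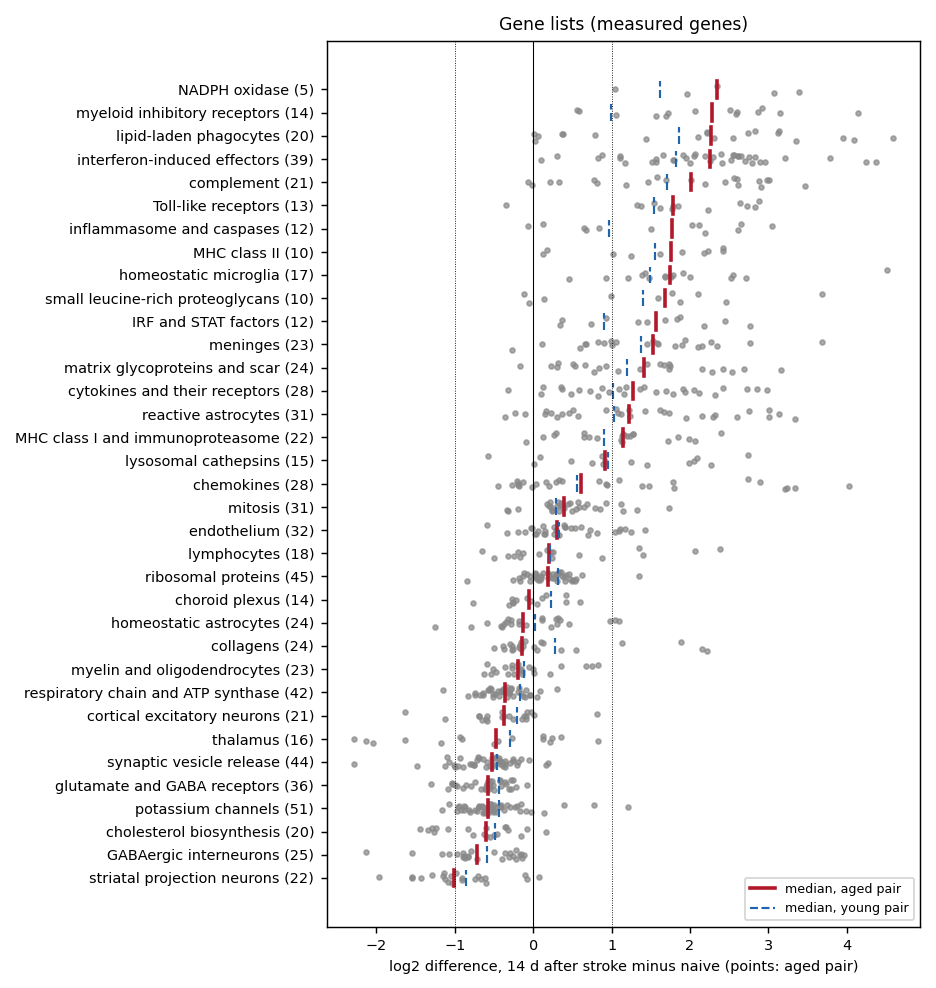
Log2 differences, 14 d minus naive (horizontal axis), of the measured genes of 35 lists (points, aged pair), with the number of measured genes beside each name. Red bars are medians of the aged pair and dashed blue bars those of the young pair. By their medians, immune lists lie to the right of 0, such as NADPH oxidase at 2.35 from 5 measured genes. Matrix lists do too, except collagens at -0.14. Neuronal lists lie to the left, with striatal projection neurons at -1.01.

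Of 39 measured interferon-induced effectors, 35 were called higher and none lower, with a median difference of 2.25, against 1.82 in the young pair. All 39 lay above 0. Among the antiviral GTPases and sensors 16 of 18 were called, and Mx1, at 10.07 in aged 14 d tissue and 5.70 in aged naive tissue, led them. Ifi47, an interferon-gamma-induced GTPase, stood at 10.39 in aged 14 d and 7.18 in aged naive tissue. Gbp2, a guanylate-binding protein, stood at 9.45 and 6.70 in the same order. In the ISG15 and IFIT group 19 of 21 were called, with Ifitm1 at 9.53 in aged 14 d tissue against 5.28 in aged naive tissue, and Ifitm3 at 10.71 against 7.75. The 4 members that were not called were Igtp (0.88), Bst2 (0.82), Cmpk2 (0.31) and Oas3 (0.10).

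The regulators moved with the effectors. Of 12 measured IRF and STAT factors 8 were called higher, with a median of 1.57. Irf8, needed for microglia and macrophages, stood at 9.85 in aged 14 d tissue and 7.09 in aged naive tissue (2.76). Irf7, which amplifies type I interferon, stood at 9.35 and 6.90 in the same order (2.44), and Irf9, a DNA-binding factor of the type I interferon response, differed by 2.18. Irf3, the sensor-activated factor, differed by 1.84 in the aged pair and by 0.38 in the young pair. All 3 Schlafen genes were called, Slfn9 (4.65), Slfn4 (4.09) and Slfn2 (2.53, a regulator of T cell quiescence in the mouse), against 2.95, 2.21 and 1.45 in the young pair. Near-identical relatives in the Schlafen, Ifit, Oas and Ifitm families may be hit by the same probes, which leaves each single value less certain.

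Promoters of these genes are shown because the interferon-stimulated response element (ISRE), bound by interferon regulatory factors, is the known DNA element behind such induction. The 250 bases before the start site of each gene were taken from RefSeq (assembly GRCr8) and searched on both strands for the ISRE core GAAANNGAAA. It was found in 18 of 28 interferon-induced effectors with a promoter given (64.29%), against 243 of 9051 measured genes (2.68%) and 912 of 27457 promoters in all (3.32%). Oas3, Igtp and Bst2, which were not called, are among the 18, while the promoter of Mx1 held no core. Those shown are the holders with the largest differences, and whether the core goes with the size of a rise was not tested. Capitals below mark the core on the strand it was found on, so TTTC letters are its reverse complement.
Ifitm3 (chr1:205541759-205542008, minus strand): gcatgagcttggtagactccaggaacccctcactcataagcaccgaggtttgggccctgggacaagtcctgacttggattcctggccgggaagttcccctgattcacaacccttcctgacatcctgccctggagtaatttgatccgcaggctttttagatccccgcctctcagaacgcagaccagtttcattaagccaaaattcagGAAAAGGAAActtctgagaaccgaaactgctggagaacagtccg
Oas1a (chr12:41330216-41330465, plus strand): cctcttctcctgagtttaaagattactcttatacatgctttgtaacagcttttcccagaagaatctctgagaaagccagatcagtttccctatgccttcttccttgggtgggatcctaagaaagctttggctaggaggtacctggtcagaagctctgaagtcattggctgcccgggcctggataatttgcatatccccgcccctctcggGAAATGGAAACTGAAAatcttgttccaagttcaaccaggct
Gbp2 (chr2:234005477-234005726, plus strand): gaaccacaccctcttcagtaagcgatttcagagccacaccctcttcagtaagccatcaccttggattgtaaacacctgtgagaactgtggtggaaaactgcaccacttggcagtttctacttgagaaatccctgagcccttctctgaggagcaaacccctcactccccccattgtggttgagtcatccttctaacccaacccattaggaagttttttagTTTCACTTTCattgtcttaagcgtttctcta
Gbp5 (chr2:233910749-233910998, plus strand): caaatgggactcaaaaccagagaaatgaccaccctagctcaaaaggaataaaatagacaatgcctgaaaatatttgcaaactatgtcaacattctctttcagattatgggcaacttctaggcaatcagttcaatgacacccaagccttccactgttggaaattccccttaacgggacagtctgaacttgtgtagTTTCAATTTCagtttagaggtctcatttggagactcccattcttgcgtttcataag
In Oas1a, which makes the activator of RNase L and differed by 2.83, 2 overlapping cores begin at positions -41 and -35 from the start site. The single cores of Ifitm3, Gbp2 and Gbp5 (a guanylate-binding protein that differed by 2.70) begin at -44, -31 and -56.

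Among all genes called higher, 58 of 643 with a promoter given held the ISRE core (9.02%), and among those called lower 1 of 103 (0.97%). A core of the myeloid factor PU.1, GAGGAA, was in 226 of 643 promoters of genes called higher (35.15%), 22 of 103 of genes called lower (21.36%) and 2101 of 9051 of all measured genes (23.21%). The other elements searched were the gamma-activated site TTCNNNGAA, the NF-kappa-B core GGGANNNNCC, the cAMP response element TGACGTCA, the CCAAT box CCAAT and the sterol regulatory core TCACNCCAC. In genes called higher they were in 5.75%, 22.4%, 0.62%, 32.97% and 1.4% of promoters, in the same order, against 5.56%, 21.8%, 2.75%, 35.58% and 0.99% of all measured genes. Matches of different elements may overlap, as the last letters of the PU.1 core can be the first of the ISRE core. A match describes the letters of this window and is not a measured binding site.

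In MHC class II 8 of 10 measured genes were called, with a median of 1.75. RT1-Da, an alpha chain, stood at 10.43 in aged 14 d tissue and 8.01 in aged naive tissue (2.42). RT1-DMb, which loads peptides, stood at 10.02 and 7.6 in the same order (2.42), and Cd74 at 12.58 and 10.36 (2.22). The differences of Cd74, RT1-Da and RT1-Ba (1.89) were smaller than those of the young pair (3.41, 2.91 and 2.32), and their aged naive levels were higher than the young naive ones by 1.98, 1.61 and 1.21. Their aged 14 d levels were above the young 14 d ones, with Cd74 at 12.58 and 11.78. Only RT1-DOb (0.18) and RT1-DOa (0.12), which restrain peptide loading, were not called.

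The class II promoters are known for a CCAAT-like Y box, and the letters CCAAT (either strand) were in 8 of 9 class II promoters given (88.89%), against 34.24% of all promoters. That of RT1-Da is shown with the box, found as its reverse complement, in capitals, beginning at position -49.
RT1-Da (chr20:4515165-4515414, plus strand): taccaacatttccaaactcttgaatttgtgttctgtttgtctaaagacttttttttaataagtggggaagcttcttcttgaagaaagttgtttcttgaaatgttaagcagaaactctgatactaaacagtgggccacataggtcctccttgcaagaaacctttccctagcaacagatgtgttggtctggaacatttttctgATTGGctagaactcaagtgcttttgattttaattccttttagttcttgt

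Of 22 MHC class I and immunoproteasome genes 14 were called higher, with a median of 1.14. Psmb9, an immunoproteasome subunit, stood at 9.11 in aged 14 d tissue and 6.72 in aged naive tissue (2.40). Tap1, which carries peptides into the endoplasmic reticulum, stood at 9.0 and 7.16 in the same order (1.84). The chaperone genes Pdia3 (0.27) and Calr (0.12), which serve all secreted proteins, stayed near 0. RT1-S3, a class Ib heavy chain that differed by 2.06, carries an ISRE core at position -112, and 8 of 20 promoters of this list held one (40.0%).
RT1-S3 (chr20:2675278-2675527, plus strand): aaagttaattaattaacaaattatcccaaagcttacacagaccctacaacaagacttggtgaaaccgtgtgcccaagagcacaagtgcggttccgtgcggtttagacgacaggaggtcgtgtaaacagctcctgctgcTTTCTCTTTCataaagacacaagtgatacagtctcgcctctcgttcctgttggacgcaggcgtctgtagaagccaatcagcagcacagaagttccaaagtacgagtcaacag
RT1 genes are near-identical copies in a variable cluster, and the array design may not separate them.

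Among complement components 10 of 11 were called higher, and among receptors and regulators 5 of 10. C1qc stood at 11.32 in aged 14 d tissue and 7.86 in aged naive tissue (3.46), and C1qa and C1qb differed by 2.61 and 2.56. Serping1, the inhibitor of C1r and C1s, stood at 11.32 and 8.31 in aged 14 d and aged naive tissue (3.01). The receptor subunits Itgb2 (2.98) and Itgam (2.87), which form complement receptor 3, and the anaphylatoxin receptor C3ar1 (2.91) were also called. C3 differed by 2.60 in the aged pair and 3.63 in the young pair, and its aged 14 d level, 12.20, was above that of young 14 d tissue, 11.62. The membrane regulators Cd55 (0.21), Cd46 (-0.02) and Cd59b (-0.06) stayed near 0.

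Receptors of innate recognition were called for nearly every measured member. Of 13 genes of the Toll-like receptor list 12 were called (median 1.79), and Tlr12 (-0.35) was not. Tlr7, which senses single-stranded RNA in endosomes, stood at 10.51 in aged 14 d tissue and 7.78 in aged naive tissue (2.72). Unc93b1, which carries it there, stood at 10.04 and 7.16 in the same order (2.88), and Cd180, a receptor related to Tlr4, differed by 2.83. Of 7 Fc receptor genes 6 were called, among them Fcgr2b, the inhibitory receptor for immunoglobulin G (3.13), and Fcer1g, the shared signalling chain (2.68).

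The phagocyte oxidase makes superoxide, and the 5 measured of its 12 matched genes were all called. Cybb, the catalytic subunit, stood at 10.23 in aged 14 d tissue and 6.84 in aged naive tissue (3.39). Rac2, its GTPase, stood at 10.18 and 7.11 in the same order (3.06), against a difference of 1.61 in the young pair. Ncf1 (2.35), Cyba (1.96) and Ncf4 (1.05) followed. With no filter, which lets in genes low on every array, the median of this list was 0.01.

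In the inflammasome and caspase list 7 of 12 were called, with a median of 1.76 against 0.96 in the young pair. Casp4 stood at 9.0 in aged 14 d tissue and 5.94 in aged naive tissue (3.05), and Casp1, which activates interleukin-1 beta and interleukin-18, at 9.04 and 6.39 (2.65). Aim2, the sensor of DNA in the cytosol, stood at 7.57 in aged 14 d tissue and 4.96 in aged naive tissue (2.61), and the young pair differed by 0.45. The mitochondrial-pathway caspase Casp9 (-0.07) stayed near 0.

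Of 28 measured cytokine and receptor genes 17 were called higher, with a median of 1.27. Il18, a cytokine released by caspase-1, stood at 9.01 in aged 14 d tissue and 6.02 in aged naive tissue (2.98). Csf2rb, the shared chain of the interleukin-3 and GM-CSF receptors, stood at 9.25 and 6.40 in the same order (2.85), and Il1rl1, the interleukin-33 receptor, differed by 2.72. Csf3r (2.42) and Osmr (2.31), receptors for G-CSF and oncostatin M, were also called. Interleukin-1 beta itself, Il1b, differed by 0.49 and lay at 6.60 in aged 14 d tissue. In the TNF superfamily 6 of 20 were called, led by the TNF receptors Tnfrsf1a (2.24) and Tnfrsf1b (1.93) and by the ligand Tnfsf10 (TRAIL, 1.89).

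Chemokines split. Of 28 measured genes 11 were called higher and 8 lay below 0, so that the median was only 0.60. Cxcl13 stood at 10.26 in aged 14 d tissue and 6.23 in aged naive tissue. Cxcl10, which attracts T cells and is induced by interferon, stood at 9.57 and 6.24 in the same order (3.34). Ccl2, which attracts monocytes, stood at 9.79 and 6.55 (3.24). Ccl6 (3.21), Cxcl16 (2.89) and Ccl3 (2.73) were further ligands of this kind, while Cxcl14, a ligand made in the resting brain, differed by -0.45. With the filter at the 60th percentile this median was 1.63.

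Markers of several myeloid cell types were higher together. Of 17 genes of homeostatic microglia 15 were called, with a list median level of 10.12 in aged 14 d tissue and 8.44 in aged naive tissue. Hpgds (prostaglandin D synthase, 2.72), Trem2 (a lipid receptor, 2.54) and Slc2a5 (a fructose transporter, 2.52) led after Fcrl2, and P2ry12 (the ADP receptor of resting microglia, 1.39) was called while Tmem119 (0.46) was not. Of 20 genes of lipid-laden phagocytes 14 were called, at a median of 2.27. Lgals3 (galectin-3) stood at 10.65 in aged 14 d tissue and 7.30 in aged naive tissue (3.35), Spp1 (osteopontin) at 10.86 and 7.73 (3.13), and Mmp12 (macrophage elastase) at 8.02 and 4.90 (3.12). Spp1 and Clec7a differed by more in the young pair, 4.20 and 4.81. In whole tissue, more cells of a type and more RNA per cell cannot be told apart, and the same holds for losses.

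Blood-derived and border cells showed a mixed picture. Of 10 monocyte and neutrophil genes 8 were called, with a median level of 8.65 in aged 14 d tissue and 6.57 in aged naive tissue. Mmp8, the collagenase of neutrophil granules, stood at 8.60 in aged 14 d tissue and 5.37 in aged naive tissue (3.22), and Plac8 at 9.49 and 6.33 (3.16), while the granule genes Mmp9 (-0.32) and Elane (-0.57) lay below 0. Of 10 genes of perivascular and border macrophages 5 were called, led by Ms4a6bl1 (3.31), Dab2 (an endocytic adaptor, 2.74) and Folr2 (a folate receptor, 2.30), but Lyve1 (0.65), Cd163 (0.63) and Pf4 (0.20) were not. Among 18 measured lymphocyte genes 4 were called, Cd8b (2.38), Cd4 (2.06, also on rat macrophages), Nkg7 (1.4) and Cd8a (1.35), and none of 5 measured genes of B and plasma cells was called, beside Cxcl13 at 4.03. The list median level was 7.32 in aged 14 d tissue and 6.81 in aged naive tissue.

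In the list of inhibitory receptors of myeloid cells, many of which dampen activation, 12 of 14 measured genes were called. Whether each member, such as Siglec1, is inhibitory was not tested. The list median was 2.28, against 0.99 in the young pair. Lilrb4 stood at 9.43 in aged 14 d tissue and 5.29 in aged naive tissue, a difference of 4.14. Clec4a3, a C-type lectin, stood at 8.67 and 5.52 in the same order (3.15), Siglec1 (sialoadhesin) at 9.14 and 6.22 (2.91), and Clec12a, a uric acid receptor, at 8.76 and 5.90 (2.86). Sirpa (0.56), which neurons express too, and Lair1 (0.58), a collagen receptor, were not called. All 14 measured genes had a larger difference in the aged pair than in the young pair, as had 729 of the 820 genes called higher in the aged pair.

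Genes of the lysosome, where engulfed material is broken down, were higher at both ages. Of 11 measured cathepsin proteases 7 were called and of 4 cystatins, their inhibitors, none. Ctsc, which activates granule proteases, stood at 10.80 in aged 14 d tissue and 8.06 in aged naive tissue (2.74), Ctsk at 9.28 and 7.02 (2.26), and Ctse at 8.83 and 6.75 (2.09). Of 24 lysosomal hydrolases and membrane proteins 12 were called, among them Grn (progranulin, 2.36), Laptm5 (2.23) and Tcirg1 (a subunit of the proton pump, 1.97). The median differences of the cathepsin and hydrolase lists were 0.91 and 0.83 in the aged pair, beside 0.95 and 0.84 in the young pair.

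Cholesterol genes went opposite ways. Of 20 genes of cholesterol biosynthesis, 6 were called lower and 19 lay below 0, with a median of -0.61. Idi1, which isomerises isopentenyl diphosphate, stood at 6.07 in aged 14 d tissue and 7.51 in aged naive tissue (-1.44). Insig1, which holds the pathway's sensor in the endoplasmic reticulum, stood at 8.69 and 10.02 in the same order (-1.34), and Fdft1 (squalene synthase) at 9.30 and 10.59 (-1.29). Sqle (-1.27), Msmo1 (-1.23) and the fatty acid desaturase Scd (-1.08) were the others called. Of 26 genes of cholesterol efflux and lipid storage 10 were called higher and none lower. Ch25h, which makes the oxysterol 25-hydroxycholesterol, stood at 8.84 in aged 14 d tissue and 6.62 in aged naive tissue (2.22). Abca1, the main efflux pump, stood at 11.49 and 9.36 in the same order (2.13), Plin2, which coats lipid droplets, differed by 2.10, and Soat1, which esterifies cholesterol, by 1.83. Cyp46a1, the neuronal enzyme of cholesterol turnover, differed by -0.69.

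The promoter of Idi1 is shown because the biosynthesis genes share CCAAT boxes, which bind NF-Y beside the sterol-sensing factor SREBP. CCAAT was in 13 of 16 promoters of this list (81.25%), against 35.58% of measured genes, and the sterol regulatory core as spelled above was in none of the 16. The boxes of Idi1 begin at positions -66 and -35 and are marked in capitals as the reverse complement.
Idi1 (chr17:66547525-66547774, minus strand): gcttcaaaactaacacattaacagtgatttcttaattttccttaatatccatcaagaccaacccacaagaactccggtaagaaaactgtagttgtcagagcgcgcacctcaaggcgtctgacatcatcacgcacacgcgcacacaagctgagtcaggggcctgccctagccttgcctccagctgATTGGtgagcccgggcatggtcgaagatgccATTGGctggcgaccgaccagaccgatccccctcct

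Of 23 measured genes of heme and iron handling 6 were called higher, with a median of 0.17. Cp (ceruloplasmin, which oxidises iron for export) stood at 10.99 in aged 14 d tissue and 7.85 in aged naive tissue (3.14). Slc11a1, the iron transporter of phagosomes, stood at 8.93 and 6.51 in the same order (2.42), and Hmox1, which degrades heme, at 8.23 and 6.37 (1.86). Tfrc, the transferrin receptor, differed by -0.59.

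Scar and matrix genes were higher for fibrous components but not for most collagens. Of 24 measured collagens 4 were called higher: Col1a1 (10.20 in aged 14 d tissue, 7.98 in aged naive tissue, 2.22), Col1a2 (2.15), Col3a1 (1.88) and Col12a1 (1.13). Another 14 lay below 0, so the list median was -0.14, and with a filter at the 60th percentile it was 1.88. Over all genes, too, more lay below 0 (5952) than above it (4995). Of 10 small leucine-rich proteoglycans, which space collagen fibrils, 6 were called, with Lum at 9.02 in aged 14 d tissue and 5.33 in aged naive tissue (3.69), Bgn (biglycan) at 11.43 and 8.97 (2.46) and Dcn (decorin) at 11.20 and 9.10 (2.10). Of 24 matrix glycoproteins and scar genes 14 were called, among them Adamts12 (a matrix protease, 3.16), Mfap4 (an elastic fibre protein, 2.69) and Fbln1 (fibulin-1, 2.54). None of 21 chondroitin sulfate proteoglycan and perineuronal net genes was called. Hapln4, a link protein of these nets, had the lowest difference of that list (-0.82).

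Markers of the meninges were higher as well, and their list shares members with the matrix lists, such as Lum (3.69), its highest gene. Of 23 measured meningeal genes 15 were called higher, and the list's median level was 9.52 in aged 14 d tissue, against 8.32 in aged naive tissue. Igf2, a growth factor of meningeal and vascular cells, stood at 11.64 in aged 14 d tissue and 8.88 in aged naive tissue (2.76). Slc6a13, a GABA transporter of the leptomeninges, stood at 10.37 and 8.02 in the same order (2.35), and Aldh1a2, which makes retinoic acid there, at 9.49 and 7.22 (2.27). The part of attached meninges in the matrix differences was not tested. On the aged 3 d array the list median difference from naive was 0.29, and at 14 d it was 1.53.

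Proteases and growth factors of remodelling followed. Of 23 metalloproteinase and TIMP genes 7 were called higher and 1 lower. The inhibitor Timp1 stood at 10.47 in aged 14 d tissue and 7.46 in aged naive tissue (3.01), whereas Timp4 stood at 7.96 and 9.03 (-1.08). In the TGF-beta system 7 of 34 were called, with Tgfb1, its best-known ligand, at 10.71 in aged 14 d tissue and 7.94 in aged naive tissue (2.78), against a young difference of 1.78, and the receptor Tgfbr1 at 1.73. In the insulin-like growth factor system 4 of 14 were called, Igf1 (3.26), Igf2 (2.76), the binding protein Igfbp2 (1.99) and H19 (1.02). None of 23 neurotrophic factor and receptor genes was called.

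In the list of reactive astrocytes 19 of 31 genes were called higher, with a median of 1.22. Several of these genes are also made by other cells, such as Cxcl10 (3.34), Cp (3.14) and Serping1 (3.01). The filament gene Gfap is more particular to astrocytes and differed by 1.23 in the aged pair and 2.02 in the young pair. Vim (vimentin), a filament gene that is less particular to them, differed by 1.74 and 2.05 in the same order. Gfap was 1.0 higher in aged naive than in young naive tissue. Of 24 genes of homeostatic astrocytes 2 were called higher, Slc7a11 (the cystine transporter, 1.09) and Entpd2 (1.05), and Slc6a11, a GABA transporter, was called lower (-1.25). With array medians centred, neither Slc7a11 nor Entpd2 was called.

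No gene of 23 of myelin and oligodendrocytes was called (median -0.19), from Aspa (aspartoacylase, 0.83) to Ermn (ermin, -0.63). Nor was any of 10 precursor genes, although Pdgfra (0.99) and Cspg4 (0.91) came close. Of 32 endothelial genes 6 were called higher (18.8%, beside 7.49% of all genes), Eng (endoglin, 1.42), Angpt2 (1.24), the adhesion molecules Vcam1 (1.16) and Icam1 (1.11), Angpt1 (1.10) and Cdh5 (1.04). With array medians centred, neither Angpt1 nor Cdh5 was called. Cldn5, the tight junction protein of the blood-brain barrier, differed by -0.59 in the aged pair and 0.24 in the young pair. None of 14 choroid plexus genes was called, and their median level was 8.18 in aged 14 d tissue and 8.19 in aged naive tissue.

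Neuronal genes were lower in nearly all lists, mostly by less than 1. Striatal projection neurons had the strongest shift among the neuronal lists, with 11 of 22 measured genes called lower and a median of -1.01, against -0.86 in the young pair. Drd2, a dopamine receptor of indirect-pathway neurons, stood at 8.38 in aged 14 d tissue and 9.80 in aged naive tissue (-1.43). Adora2a, an adenosine receptor of the same neurons, stood at 8.33 and 9.62 in the same order (-1.29). Lrrc10b stood at 7.36 and 9.32, and Tac1 at 7.03 and 8.58. The list's median level was 8.36 in aged 14 d tissue and 9.71 in aged naive tissue, and 18 of 22 were called lower when the young naive array stood in for the aged naive one, where 1.68% of all genes were called lower and 7.97% higher.

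Cortical excitatory neurons had 2 of 21 genes called lower, Ntng1 (-1.63) and Nrn1 (neuritin, -1.13), with a median of -0.37. GABAergic interneurons had 4 of 25 called lower, or 7 with array medians centred, and all 25 lay below 0. The 4 were Calb2 (-2.13), Tac1 (-1.54), Kcnc2 (-1.17) and Slc32a1, the vesicular GABA transporter. Slc32a1 stood at 8.44 in aged 14 d tissue and 9.52 in aged naive tissue (-1.08). Calb2 and Tac1 are also counted among the thalamic and striatal genes, and Calb2 (-0.93) was not called against the young naive array. The peptide genes Sst (-0.21) and Npy (-0.12) hardly differed in the aged pair, beside -0.96 and -1.05 in the young pair.

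Some markers of deeper regions were called lower as well, and part of these calls depended on which naive array was used. Of 16 thalamic genes 6 lay above 0 and 5 were called lower (Slc17a6, Calb2, Shox2, Ntng1 and Ramp3, a receptor activity-modifying protein, -1.18), and with the young naive array in its place 3 were (Slc17a6, -1.28, Ntng1, -1.22, and Shox2, -1.04), beside 2 called higher. The thalamic median was -0.48 against the aged naive and -0.64 against the young naive array. Of 9 genes of midbrain monoamine neurons 2 were called, Th and Slc6a3, and none with the young naive array, where Th differed by -0.62 and Slc6a3 by -0.69. Of 15 hypothalamic genes 2 were called, Pmch and Oxt (oxytocin, 7.27 in aged 14 d tissue, 8.61 in aged naive tissue, -1.33), and with the young naive array 1, Pmch (-1.36). Tph1 differed by -0.19 against the young naive array. The median levels of the thalamic, hypothalamic and midbrain lists were 7.38, 7.02 and 6.64 in aged 14 d tissue, against 8.55, 7.40 and 7.21 in aged naive tissue. The part of the dissected region in these falls was not tested. Th, Tph1, Slc6a3, Pmch, Calb2 and Shox2 lay below the 40th percentile of the aged 14 d array, so the size of their falls is uncertain.

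Genes of excitability and transmission showed the same broad shift. All 36 glutamate and GABA receptor genes lay below 0, and 5 were called lower, with a median of -0.57. Of the 14 GABA and glycine receptor subunits 4 were called, among them Gabra4, at 9.86 in aged 14 d tissue and 10.87 in aged naive tissue (-1.02), and Glra1 (a glycine receptor subunit, -1.30). Glutamate receptor subunits had 1 of 22 called, Grm8 (-1.08). Against the young naive array neither Glra1 (-0.64) nor Grm8 (-0.91) was called, and Glra1 lay below the 40th percentile of the aged 14 d array. In synaptic vesicle release 6 of 44 were called, or 10 with array medians centred. The lowest was Slc17a6 (-2.29), also counted among the thalamic genes. Syt2, a fast calcium sensor, stood at 8.0 in aged 14 d tissue and 9.48 in aged naive tissue (-1.48), and Cplx1 (complexin-1) at 9.74 and 10.85 (-1.12).

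Of 51 potassium channel genes 47 lay below 0 but only 2 were called lower, Kcnc2 (the Kv3.2 channel of fast-spiking cells, -1.17) and Kcnh2 (-1.07). With array medians centred 6 were called, and with the young naive array 9, though Kcnh2 (-0.96) was then not among them. Kcnn4, a calcium-activated channel of microglia and lymphocytes, was called higher (1.2). In sodium and calcium channels Scn4b (-1.47) and Hcn2 (-1.10) were called, and with array medians centred 5 were. Hcn2 was not called against the young naive array (-0.97). Axonal cytoskeleton was lower too, with Nefm at 8.59 in aged 14 d tissue and 9.95 in aged naive tissue (-1.36) and Nefh at 7.95 and 9.26 (-1.31).

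Genes of energy metabolism and protein synthesis differed by little. Of 42 respiratory chain and ATP synthase genes 39 lay below 0, with a median of -0.36 against -0.17 in the young pair, but 1 was called, Uqcrfs1 (the Rieske iron-sulfur protein of complex III, -1.15). Hk2, a hexokinase raised in activated cells, was the 1 of 26 glycolytic genes called higher (1.96). Of 45 ribosomal protein genes 36 lay above 0, and Rpl18 (1.35) was called. Hspb1, a small heat shock protein of reactive astrocytes, was the 1 of 22 chaperone genes called (1.95). Metallothioneins Mt1 (1.72) and Mt2A (1.10), which bind zinc and copper, were among 5 of 27 stress genes called higher, of which 3 were left with array medians centred.

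Of 31 mitosis genes 4 were called higher in the aged pair (12.9%, beside 7.49% of all genes), Aurkb (a mitotic kinase, 1.74), Pttg1 (securin, 1.32), Top2a (topoisomerase, 1.15) and Bub1 (1.13), with a median of 0.39. Bub1 stood at 6.16 in aged 14 d and 5.03 in aged naive tissue, below the 40th percentile of both arrays, so its call is uncertain. On the aged 3 d array the median difference of this list from naive was 2.08. The list's median level was 5.57 in aged naive and 6.19 in aged 14 d tissue, below the 40th percentiles of 6.556 and 6.53. At 3 d it was 7.69. Members could pass the filter through the 3 d arrays alone, so the 3 d median partly reflects the filter. Top2a stood at 5.86 in aged naive tissue, 9.36 at 3 d and 7.01 at 14 d. No gene of 28 of DNA replication was called at 14 d. Of 31 axon growth genes 5 were called, led by Nrp1 (a semaphorin receptor, 1.78), and Rtn4, which encodes Nogo, differed by -0.93. Of 28 immediate early genes Atf3 (1.41) was called higher and Nptx2 (-1.0) lower.

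For most called genes the aged 14 d level was beyond the aged 3 d level. Of 820 genes called higher 730 (89.0%) were at least as high at 14 d as at 3 d, and of 127 called lower 111 (87.4%) were at least as low. Both comparisons share the aged naive array and the rule selected for 14 d, so these shares are a description. The interferon-induced effectors had a median difference from naive of 0.86 at 3 d and 2.25 at 14 d, MHC class II 0.85 and 1.75, complement 0.79 and 2.01, and small leucine-rich proteoglycans 0.31 and 1.68. Cxcl13 stood at 6.23 in aged naive tissue, 7.70 at 3 d and 10.26 at 14 d, and Slfn4 at 4.84, 6.37 and 8.93. Some inflammatory genes ran the other way: Ccl2 stood at 6.55 in aged naive tissue, 11.14 at 3 d and 9.79 at 14 d, Spp1 at 7.73, 12.31 and 10.86, and Lcn2 (lipocalin-2) at 6.60, 10.80 and 8.27.

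The young pair was largely nested in the aged pair. Of the 820 genes called higher in the aged pair 503 were also called in the young pair, which is 61.3% of the aged and 94.2% of the young calls. Of the 127 called lower 19 were shared, 15.0% of the aged and 50% of the young calls. Among the 534 genes called higher in the young pair, a selection that favours the young values, 412 (77.2%) still had the larger difference in the aged pair. Among the 38 called lower in the young pair 15 (39.5%) had the larger fall in the aged pair. The 4 arrays are separate pools, and the difference between ages has no replicate and was not tested.

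**Figure D5:**
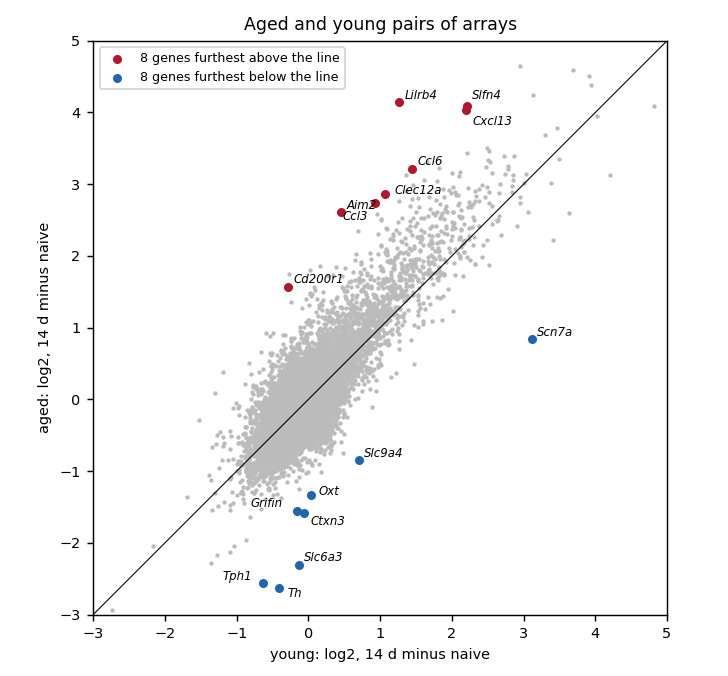
Log2 differences, 14 d minus naive, of the aged pair (vertical axis) and the young pair (horizontal axis) for 10947 genes (grey points), with the line of equal differences. The 8 genes furthest above the line (red) include Lilrb4, at 4.14 in the aged and 1.26 in the young pair, and the 8 furthest below (blue) include Scn7a, at 0.84 and 3.11.

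In 142 genes (1.3%) the aged difference exceeded the young one by at least 1, and in 22 (0.201%) it fell short by at least 1. Those furthest above were immune genes. Lilrb4 stood at 9.43 in aged 14 d tissue and 5.29 in aged naive tissue, whereas young 14 d and young naive tissue stood at 7.06 and 5.80. Aim2 differed by 2.61 in the aged pair and 0.45 in the young pair, Slfn4 by 4.09 and 2.21, and Cxcl13 by 4.03 and 2.19. Cd200r1, the myeloid receptor for the neuronal brake CD200, stood at 7.71 in aged 14 d tissue and 6.14 in aged naive tissue, but at 6.55 in young 14 d tissue and 6.84 in young naive tissue. The remaining 3 were Ccl3 (2.73 and 0.93 in the aged and young pairs), Clec12a (2.86 and 1.07) and Ccl6 (3.21 and 1.44). The aged naive minus young naive difference was -0.70 for Cd200r1, -0.51 for Lilrb4 and -0.35 for Aim2, and closer to 0 for the other 5.

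Those furthest below mostly carried a higher aged naive level. Scn7a, a sodium channel of glia and sensory neurons, stood at 7.54 in aged 14 d tissue and 6.70 in aged naive tissue, but at 8.60 in young 14 d tissue and 5.49 in young naive tissue. Th, Slc6a3, Tph1, Ctxn3, Grifin, Oxt and Slc9a4 (a sodium-proton exchanger) had aged naive levels 2.01, 1.62, 2.38, 0.81, 1.06, 0.92 and 1.09 above the young naive ones. Their aged 14 d levels were closer to the young 14 d ones, such as 6.35 and 6.56 for Th and 7.27 and 7.73 for Oxt.

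Genes called higher also lay side by side on chromosomes. In the gene order of GRCr8 there were 25 runs of at least 3 neighbouring measured genes all called higher, holding 85 genes. Genes called lower gave 0 runs, but they were 1.16% of all genes, against 7.49% called higher. With so few lower calls, the 0 cannot be read as a lack of clustering. How many runs a random gene order would give was not computed. The longest, on chromosome 20, was Tap2, Psmb8, Tap1, Psmb9, RT1-DMb and RT1-DMa, with differences from 1.12 to 2.42. A run of 5 on chromosome 4 held the lectin genes Clec2d2, Clec2g, Clec12a, Clec7a and Olr1 (1.49 to 4.10), and one of 5 on chromosome 1 held Ch25h, Lipa, Ifit2, Ifit3 and Ifit1 (1.14 to 2.65). Some runs are families of related genes, such as C1qb, C1qc and C1qa on chromosome 5 and Casp1, Casp4 and Casp12 on chromosome 8, whose members may share probes. Others join unrelated genes, such as Dab2, Fyb1 and Osmr on chromosome 2.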

How the data were processed

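Total RNA of microdissected tissue was pooled per group and hybridised to 1 single-channel Affymetrix array for each of 6 groups. The deposited tables hold a single number for every probe set of an array, read here as log2. That base was judged from how far the numbers spread, and each fold rests on this reading. The tools named per the submitters' processing notes are R 2.14.0 and affy. How background, summarisation and normalization were handled is not stated there, and no genome build is named. Array medians are nearly equal, so an overall change in RNA content would not show. Neither a date nor a batch is known for any array, and batch and group cannot be told apart.

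Of 28826 probe sets 15209 had 1 symbol in the platform annotation, 306 several and 13311 none here. Of the 15209, 15178 matched the RefSeq table of GRCr8. The probe set with the highest mean over 6 arrays stood for a gene, kept if at or above the 40th percentile of an array on at least 1 of 6. Differences were computed in Python 3.11.15 with pandas 2.3.3 and numpy 2.4.6 and tested on simulated data. No statistical test was run.

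Of 1871 entries in 68 gene lists 1604 matched by symbol, 24 by synonym and 243 not. The comparison, lists and naming rule were chosen with earlier results of these data known, and all promoter elements but the ISRE after the values were seen. The rule took genes that reach the overall median on either aged array and named the 15 highest and 15 lowest differences, up to 5 members with the largest absolute difference per list, and the 8 highest and 8 lowest differences between the ages, passing over locus-style symbols. Other genes, such as Il1b, Tmem119, P2ry12, Sst and Npy, were named after their values were seen. Alternatives were quantile normalization, centred medians, no filter or the 60th percentile, the mean of probe sets, other naive arrays and other thresholds.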

Additional observations from a re-analysis of the deposited data

Results flagged for a closer look

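The following values had opposite signs in the aged and young pairs of arrays. None of these differences between the ages was tested, and each rests on 4 single pools. Cd200r1 differed by 1.57 between aged 14 d and aged naive tissue and by -0.29 between young 14 d and young naive tissue. Slc9a4 differed by -0.85 in the aged pair and 0.70 in the young pair, and on the aged 14 d array it lay below the 40th percentile. Of the choroid plexus genes, Sostdc1, which encodes a secreted inhibitor of BMP and Wnt signalling, differed by -0.76 in the aged pair and 0.21 in the young pair, and Kl (klotho) by -0.30 and 0.27. Aged naive levels were above young naive ones by 0.69 for Sostdc1, 0.30 for Kl and 1.09 for Slc9a4, and aged minus young naive was -0.70 for Cd200r1. Against the young naive array, aged 14 d tissue differed by -0.07 for Sostdc1 and -0.0018 for Kl. Asmt, the last enzyme of melatonin synthesis, differed by -0.26 in the aged pair and 0.30 in the young pair. The median of the collagen list was -0.14 in the aged pair and 0.27 in the young pair, and with the filter at the 60th percentile it was 1.88 in the aged pair.

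A signal also lay outside the named genes. Of 7249 kept probe sets without a single symbol, 355 were at least 1 higher in aged 14 d than in aged naive tissue and 102 were at least 1 lower, and they are not named here.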

How the results depend on the processing

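With array medians centred over the measured genes every difference shifted by -0.106, and 720 genes were called higher and 223 lower (76.4% higher), beside 820 and 127 (86.6%) with the values as deposited. At 1.5-fold 1549 genes were higher and 960 lower, and at 4-fold 243 and 9. Over quantile normalization, no filter, the 60th percentile, the mean of probe sets and both other naive references, counts ran from 733 to 872 higher and from 120 to 184 lower, all within 1.5 times. Against the young naive array 762 of the 820 genes and 89 of the 127 kept their call. The 38 lower calls that were lost include Tph1, Th, Slc6a3, Oxt, Grifin, Ctxn3, Calb2, Scd, Uqcrfs1, Timp4, Slc6a11, Glra1, Grm8, Kcnh2 and Hcn2. No named gene past the threshold changed sign. The medians of 5 of 68 lists did: collagens (1.88) and p53 targets (0.09) at the 60th percentile, choroid plexus (0.17), homeostatic astrocytes (0.01) and p53 targets (0.05) against the young naive array, and metallothioneins and oxidative stress (-0.02) with medians centred. Against the mean of both naive arrays choroid plexus (0.07) and p53 targets (0.08) were above 0. No paired analysis was possible because each group is 1 array, and for the same reason no replicate could be left out. Of 399 genes with several kept probe sets 18 were called, and in 5 of these the probe sets differed by over 1. In 2 called genes they also differed in sign, Arpc1b (1.78 and -0.18) and RT1-CE7 (1.06 and -0.05). Of genes called higher 25.6% lay below the 40th percentile on the aged naive array, and of genes called lower 13.4% on the aged 14 d array, where array signal limits the size of a fold.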
